A study of Mus musculus with 30 samples.

Results

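The genes described here are 9 that serve cavitation, the filling of the blastocyst with fluid: the sodium pump subunits Atp1b1 and Atp1b3, the water channels Aqp3, Aqp8, Aqp9 and Aqp11, the sodium-hydrogen exchanger Slc9a3, and the membrane scaffolds Slc9a3r1 and Ezr. Each was read from the transcript cluster that carries its symbol alone, of 30142 genes that could be read in this way. All 9 were found, each had 1 such cluster, and all 9 passed the filter on low signals that kept 18090 genes. Slc9a3 passed closely, with a mean log2 signal of 4.81 over all arrays against a limit of 4.80.

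Transcript levels were measured in 30 single blastocysts, 1 per array. All embryos came from B6C3F1 x CD1 matings after ovarian stimulation with PMSG and hCG, were fertilised in vivo and were taken from the oviduct as zygotes. Their first cleavage took place in KSOM(aa), a medium for mouse embryos that contains amino acids. At the 2-cell stage, the blastomeres of 10 embryos were parted, and 1 grew alone in GM501 and its co-twin alone in SAGE 1-Step, both media for assisted human reproduction. The remaining 10 embryos stayed undivided and grew singly in KSOM(aa). All blastocysts were lysed 4 days post coitum, at Theiler stage 5 and after 96 h of culture. The labels put twins at approximately 40 to 50 cells and controls at 80. Medium, bisection and cell number therefore cannot be told apart in a comparison of twins with controls. The number of matings and of culture days is not stated, so p-values measure the spread between these blastocysts only. In a whole blastocyst, fewer cells of a type and less RNA per cell cannot be told apart either.

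In the trophectoderm, the outer epithelium of the blastocyst, the sodium pump (Na+/K+-ATPase) in the basolateral membrane drives sodium into the space beneath the cells, and water follows through aquaporins and between cells. The pump consists of a catalytic alpha and a glycosylated beta subunit, and the beta subunit carries the complex to the membrane. Sodium enters the cell across the apical membrane through exchangers such as NHE3, the product of Slc9a3, which the scaffold NHERF1 (Slc9a3r1) and the actin linker ezrin (Ezr) hold in place.

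No label names a batch, but the array medians fell into 2 sets. They ran from 4.81 to 5.28 log2 units in the 12 twins of pairs 1 to 6, and from 4.59 to 4.69 in the 10 controls. In pairs 7 to 10 they ran from 4.57 to 4.67 in 7 of the 8 twins, and the SAGE twin of pair 8 lay apart at 5.12. Results against controls are therefore given for all pairs and within each set, since both sets hold both media. No 2 arrays held identical values. Markers of the trophectoderm were well measured, with a mean signal of the 8 listed genes from 11.6 to 12.2 in controls, 11.2 to 11.9 in pairs 7 to 10 and 10.3 to 11.1 in pairs 1 to 6. Markers of oviduct epithelium, of cumulus and granulosa cells, and of blood and immune cells had mean signals over each list from 4.10 to 5.75 in all groups. Single markers stood higher, with group means from 5.93 to 6.00 for Has2 and from 5.84 to 6.42 for Cd68. Of their 5 genes kept, 0 were called in any comparison of all pairs, where 25.6% of all genes were called in the pair means against controls. From pairs 1 to 6 alone, 2 of 5 were called higher against controls, where 42.1% of all genes were called higher in the pair means.

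Of the 9 cavitation genes, 0 passed the test between the media, where 0% of all genes were called. With co-twins averaged, 6 of the 9 were lower in twins than in controls, where 25.6% of all genes were called and 11.4% were called lower. Those that fell against controls were Atp1b1, Aqp3, Aqp8, Aqp9, Slc9a3r1 and Ezr, and 0 of 9 rose from all pairs. From pairs 1 to 6 alone the same 6 genes were lower and Aqp11 and Slc9a3 were higher, where 64.2% of all genes were called, 22% lower and 42.1% higher, and from pairs 7 to 10 alone 0 of 9 passed the test (0.73% of all genes called); the difference between the sets was not itself tested.

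**Figure D1:**
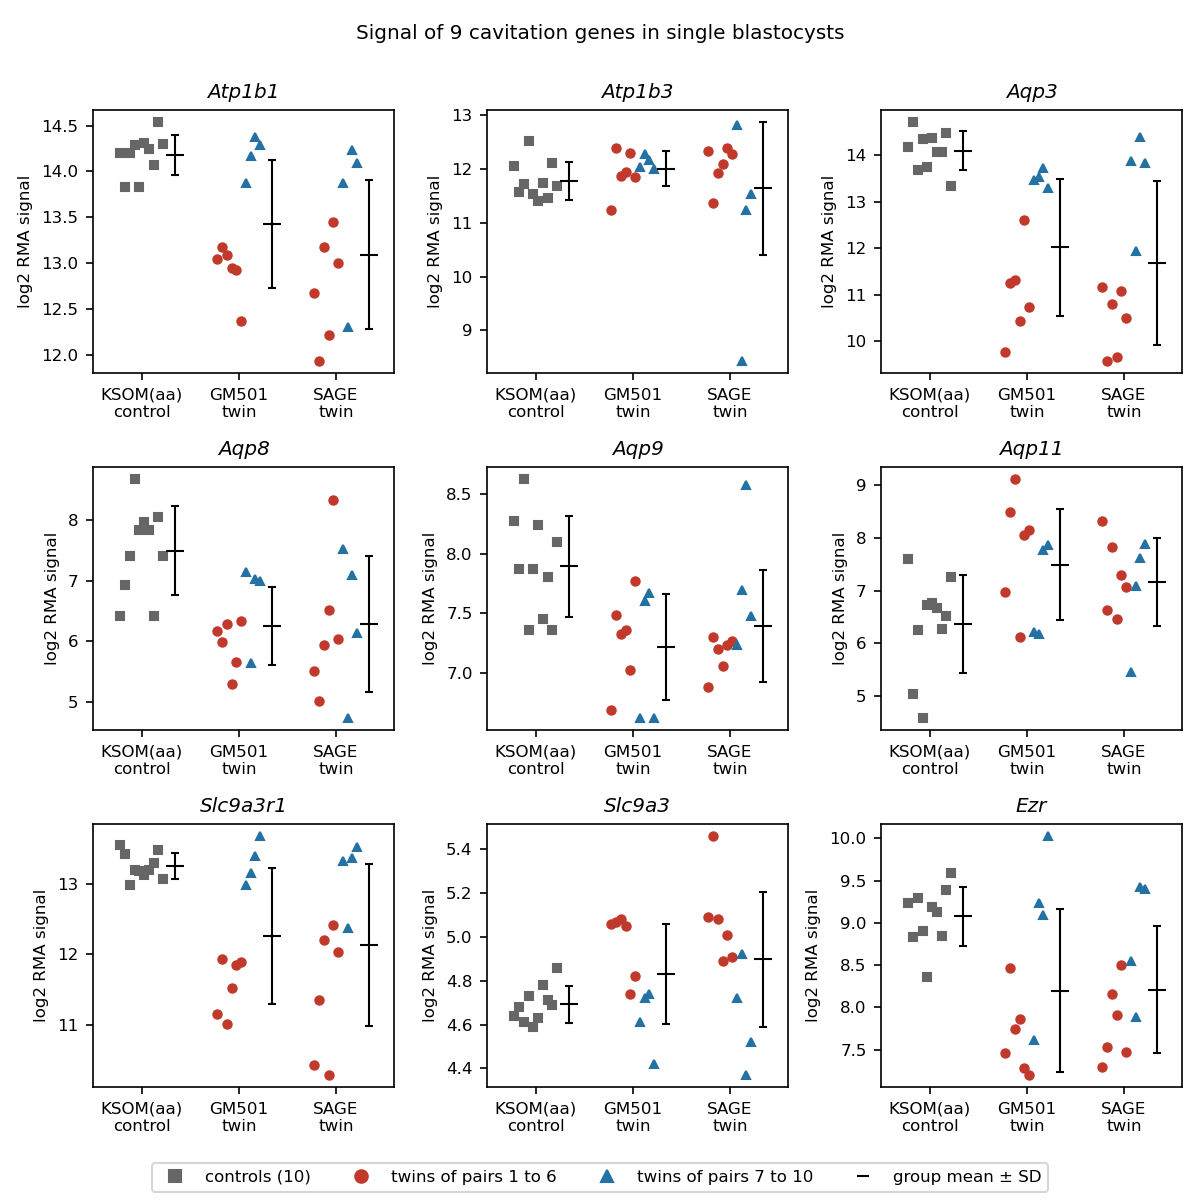
Log2 signal of each of the 9 genes (vertical axis, one panel per gene) in every blastocyst, by group (horizontal axis), with pairs 1 to 6, pairs 7 to 10 and controls marked separately; bars show the group mean ± SD. In Atp1b1, Aqp3 and Slc9a3r1 all 12 twins of pairs 1 to 6 lie below all 10 controls, while most twins of pairs 7 to 10 lie among the controls. The share of all genes that lie so was not counted.

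The sequences upstream of the start sites are shown for the 3 genes in which all 12 twins of pairs 1 to 6 lay below every control and for Ezr, the second scaffold gene that fell. Each is the 250 bases before the RefSeq start site, in GRCm38.p6, 5′ to 3′ on the gene's own strand. Capitals mark the GC box (GGGCGG, or CCGCCC on the other strand), the CCAAT box (CCAAT, or ATTGG) and the TATA box (TATAAA, or TTTATA). They lie at chr1:164458356-164458605 on the minus strand for Atp1b1, chr4:41098184-41098433 on the minus strand for Aqp3, chr11:115163091-115163340 on the plus strand for Slc9a3r1 and chr17:6782781-6783030 on the minus strand for Ezr.
Atp1b1: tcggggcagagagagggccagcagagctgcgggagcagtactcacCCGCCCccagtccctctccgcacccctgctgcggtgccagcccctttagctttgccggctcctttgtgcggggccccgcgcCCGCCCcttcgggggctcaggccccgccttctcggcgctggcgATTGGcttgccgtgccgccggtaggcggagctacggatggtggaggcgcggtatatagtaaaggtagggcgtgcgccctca
Aqp3: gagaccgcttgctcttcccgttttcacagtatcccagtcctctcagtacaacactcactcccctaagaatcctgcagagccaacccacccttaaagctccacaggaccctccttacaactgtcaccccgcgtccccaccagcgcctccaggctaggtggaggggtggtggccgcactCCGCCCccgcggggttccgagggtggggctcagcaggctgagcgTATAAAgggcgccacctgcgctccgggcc
Slc9a3r1: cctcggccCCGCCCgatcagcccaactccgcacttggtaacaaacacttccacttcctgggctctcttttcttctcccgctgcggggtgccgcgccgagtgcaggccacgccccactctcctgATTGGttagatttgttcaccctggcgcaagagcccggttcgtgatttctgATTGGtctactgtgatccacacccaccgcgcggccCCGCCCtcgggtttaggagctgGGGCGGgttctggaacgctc
Ezr: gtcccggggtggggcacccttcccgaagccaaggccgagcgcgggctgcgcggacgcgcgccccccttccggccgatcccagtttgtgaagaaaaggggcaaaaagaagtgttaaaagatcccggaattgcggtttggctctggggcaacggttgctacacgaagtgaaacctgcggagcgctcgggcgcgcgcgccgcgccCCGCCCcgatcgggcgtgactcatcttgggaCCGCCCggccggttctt

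All 4 windows held a GC box, which 32.7% of 32851 RefSeq promoter windows of this length hold. Atp1b1 had 2, Aqp3 1, Slc9a3r1 3 and Ezr 2. Atp1b3 and Aqp9 had 2 RefSeq windows each. GC boxes also stood in Atp1b3 (5 in 1 of its windows, 0 in the other) and Slc9a3 (3), which were not called lower. Aqp8 and Aqp9, which fell, and Aqp11 had none in any window. A TATA box began at position -29 from the start site of Aqp3 and none was found in the windows of the other 8 genes, with a share of 12.4% over all windows. A CCAAT box was found in Atp1b1 and Slc9a3r1, with a share of 33.8%. The letters of TFAP2 (GCCNNNGGC), TEAD (GGAATG, or CATTCC) and GATA sites (AGATAA, or TTATCT), for factors of the trophectoderm, were searched on both strands too. Only Aqp8 held one of them, a TEAD match at position -221 from its start site; the shares over all windows were 13.7%, 12.6% and 9.99%. No 2 matches overlapped in these windows. G and C made up 70.4% of the Atp1b1 window, 64.0% of that of Aqp3, 62.8% of that of Slc9a3r1 and 67.2% of that of Ezr, against a median of 52.4% over all windows. A match is a run of letters and not a measured site, and no binding was measured here.

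The comparison of co-twins asked whether the medium alone shifted these genes. Between GM501 and SAGE 1-Step, 0 of the 9 genes passed the test, as did 0 of all 18090 genes (0% called; 695 genes had an unadjusted p under 0.05). The median difference of the 9 genes was 0.13 log2 units (GM501 minus SAGE), against 0.0070 over all genes. Differences ran from -0.18 ± 0.15 for Aqp9 to 0.36 ± 0.39 for Atp1b3 (SE, 10 pairs), each at an adjusted p of 1. Without pair 8, whose SAGE twin was low in Atp1b3, the difference of that gene was -0.02.

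The intervals leave room for sizeable differences in single genes. For Atp1b1 the difference was 0.33, with a 95% interval from -0.15 to 0.82. For Aqp3 it was 0.34, with an interval from -0.32 to 0.99, and for Aqp8 -0.03, with an interval from -0.73 to 0.67. The interval was narrowest for Slc9a3, from -0.26 to 0.13, and widest for Atp1b3, from -0.49 to 1.21.

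Co-twins often stood far apart in either direction. Atp1b1 was higher in the GM501 twin in 6 pairs, lower in 3 and equal in 1, with differences from -0.63 in pair 6 to 1.87 in pair 8. Aqp3 was higher in the GM501 twin in 6 pairs and lower in 4, from -1.39 in pair 1 to 1.69 in pair 2. Aqp8 differed from -2.67 in pair 5 to 0.98 in pair 2. Thus no gene held 1 direction in all 10 pairs. The largest gap between co-twins was 3.85 in pair 8, in Atp1b3, where the SAGE twin was at 8.43 and its GM501 co-twin at 12.28.

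**Figure D2:**
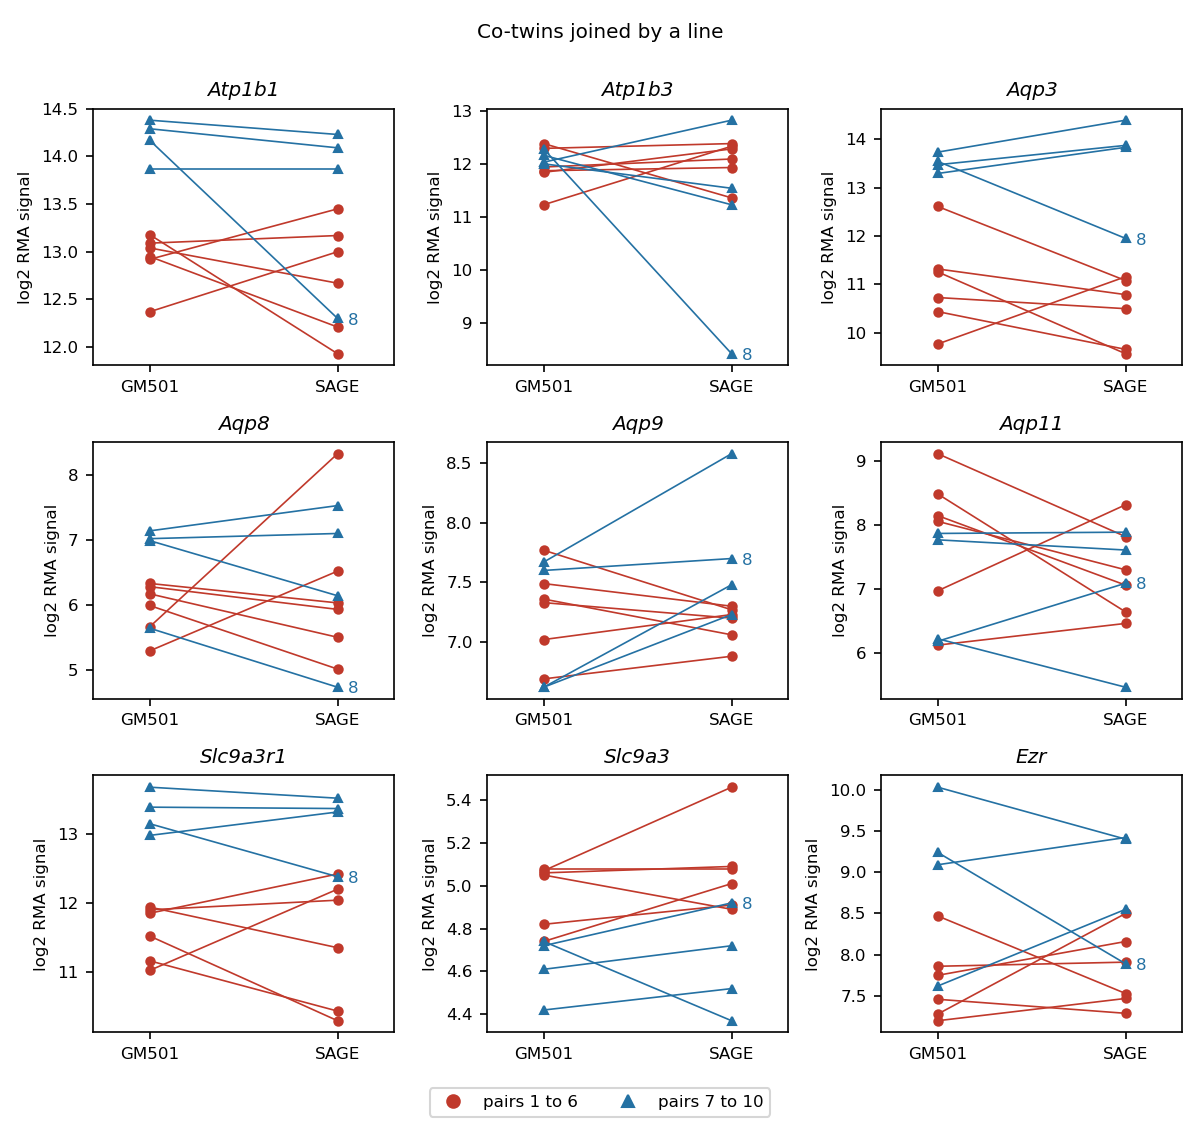
Log2 signal (vertical axis) of the GM501 and SAGE 1-Step twins (horizontal axis) for each of the 9 genes, with a line joining co-twins and pairs 1 to 6 and 7 to 10 marked apart. Lines slope both ways in every gene, and the steepest is that of pair 8 in Atp1b3, from 12.28 to 8.43.

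Against controls, more genes differed. Between GM501 twins and controls 5 of 9 were lower and 0 higher, where 13.8% of all genes were called, 6.97% lower and 6.81% higher. Between SAGE twins and controls 5 of 9 were lower and 0 higher, where 16.1% of all genes were called, 8.63% lower and 7.5% higher. With co-twins averaged, so that each embryo counted once, 6 of 9 were lower and 0 higher, where 25.6% of all genes were called, 11.4% lower and 14.2% higher. The median difference of the 9 genes was -0.76, -0.87 and -0.87 in these 3 comparisons, against 0.11 over all genes in each. All 3 comparisons share the 10 control arrays.

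The split of calls over all genes depended on the scaling of the arrays. After each array was centred on its median, 21% of genes were called lower and 2.51% higher in the pair means, and the median over all genes moved from 0.11 to -0.13. The same 6 of the 9 genes were called lower under that scaling and under quantile normalization. Differences below are from the deposited scale, as twins minus controls.

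Among the pump genes, Atp1b1, the main beta subunit in mouse trophectoderm, fell, and Atp1b3, a second beta subunit, did not pass the test. Atp1b1 lies on chromosome 1, from 164437099 to 164458355 (GRCm38.p6). Its signal in controls was 13.83 at the lowest, 14.22 at the median and 14.54 at the highest. In GM501 twins these values were 12.37, 13.14 and 14.38, and in SAGE twins 11.93, 13.09 and 14.23. All 12 twins of pairs 1 to 6 lay below every control, while in pairs 7 to 10 only the SAGE twin of pair 8, at 12.30, did so. The share of all genes that lie so was not counted, here or for the genes below. From pairs 1 to 6, 22% of all genes were called lower in the pair means. Over all pairs the SD of Atp1b1 was 0.69 in GM501 and 0.81 in SAGE twins, against 0.22 in controls (n = 10 each). Within pairs 1 to 6 it was 0.29 in GM501 and 0.58 in SAGE twins. In pairs 7 to 10 it was 0.22 and 0.89, the latter with the low SAGE twin of pair 8.

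The pair means of Atp1b1 were lower than controls by a log2 difference of -0.92 ± 0.21 (SE, 10 pair means and 10 controls), a 1.89-fold fall (adjusted p = 0.00828). For GM501 twins alone the difference was -0.76 ± 0.22 (adjusted p = 0.0321), and for SAGE twins -1.09 ± 0.25 (adjusted p = 0.0135). The order of the group means was thus control, GM501, SAGE, with the last 2 not told apart. In pairs 1 to 6 the difference was -1.35 ± 0.12 (adjusted p = 2.36e-07), and in pairs 7 to 10 it was -0.28 ± 0.17 (adjusted p = 0.548).

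Atp1b3 lies on chromosome 9, from 96332655 to 96364431. Its signal ran from 11.40 to 12.52 in controls with a median of 11.71 (lowest to highest), from 11.23 to 12.38 in GM501 twins with a median of 12.02, and from 8.43 to 12.82 in SAGE twins with a median of 12.01. The groups overlapped almost wholly, apart from the SAGE twin of pair 8 at 8.43. SAGE twins differed from controls by -0.14 ± 0.38, which turned to 0.22 without pair 8, neither passing. The pair means differed from controls by 0.04 ± 0.20 (SE; adjusted p = 0.877), a difference that turned to -0.20 when arrays were centred and to -0.036 under quantile normalization. In pairs 1 to 6, where Atp1b1 was below all controls in every twin, Atp1b3 was above the control median in 10 of 12 twins.

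Other genes of the pump were read from a list of 13 alpha, beta and FXYD genes, of which 9 had a cluster of their own and 6 passed the filter. From all pairs, 0 of the 6 were called in either comparison of a single medium with controls. Of all genes, 13.8% (GM501) and 16.1% (SAGE) were called there. In the pair means 1 of 6 was called, where 25.6% of all genes were called, namely Fxyd7, which encodes a small pump regulator, with a difference of 0.37 ± 0.12 (SE; adjusted p = 0.0322) that became 0.13 and was no longer called after centring. Fxyd2, which encodes the gamma subunit that modulates the pump, was at 4.81 to 5.12 in controls, 4.67 to 6.30 in GM501 twins and 4.85 to 5.67 in SAGE twins. Its difference of 0.33 ± 0.12 in the pair means did not pass (adjusted p = 0.0522). From pairs 1 to 6 alone, 5 of the 6 were higher in the pair means, with a median of 0.49, where 42.1% of all genes were called higher. From pairs 7 to 10 alone, 0 of 6 were called, where 0.73% of all genes were called in the pair means.

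Of the water channels, Aqp3 had the largest fall of the 9 genes, Aqp8 and Aqp9 were lower, and Aqp11 was higher without passing the test. Aqp3, an aquaglyceroporin that passes water and glycerol, lies on chromosome 4, from 41092724 to 41098183. In controls its signal was 13.35 at the lowest, 14.13 at the median and 14.72 at the highest. The corresponding values were 9.77, 11.97 and 13.73 in GM501 twins, and 9.57, 11.12 and 14.39 in SAGE twins. All 12 twins of pairs 1 to 6 lay below all controls, at 9.57 to 12.61, and 2 of the 8 twins of pairs 7 to 10 did so. In pair 10 the GM501 twin was one of these, at 13.29, and in pair 8 the SAGE twin, at 11.95.

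The fall of Aqp3 in the pair means was -2.26 ± 0.47 (SE, 10 pair means and 10 controls), or 4.78-fold (adjusted p = 0.00628). GM501 twins alone differed from controls by -2.09 ± 0.45 (adjusted p = 0.0106) and SAGE twins by -2.43 ± 0.53 (adjusted p = 0.0109). Within pairs 1 to 6 the fall was 10.3-fold, a difference of -3.36 ± 0.24 (adjusted p = 2.09e-08). Within pairs 7 to 10 the difference was -0.60 ± 0.25 and did not pass (adjusted p = 0.308). Without the pair with the low SAGE twin, pairs 7, 9 and 10 gave -0.34 ± 0.24 (adjusted p = 0.618).

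Aqp8, a channel for water that also conducts ammonia and hydrogen peroxide, lies on chromosome 7, from 123462294 to 123468003. Its signal ran from 6.41 to 8.68 in controls with a median of 7.62, from 5.29 to 7.14 in GM501 twins with a median of 6.23, and from 4.73 to 8.33 in SAGE twins with a median of 6.09. Of the 20 twins, 19 lay below the control median and 13 below every control; the SAGE twin of pair 5, at 8.33, was the only one above the median. The pair means differed by -1.23 ± 0.30 (SE; 2.34-fold, adjusted p = 0.0120). This was the gene whose difference in pairs 7 to 10, -0.96 ± 0.43, was largest among the 9, though it did not pass there (adjusted p = 0.358) and was -0.51 ± 0.41 without pair 8. In SAGE twins alone the call, -1.21 ± 0.40 at an adjusted p of 0.0435, was lost without pair 8 (-1.04, adjusted p = 0.0633).

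Aqp9, an aquaglyceroporin like Aqp3, lies on chromosome 9, from 71110659 to 71167849. Controls ran from 7.36 to 8.63 with a median of 7.87, GM501 twins from 6.62 to 7.77 with a median of 7.35, and SAGE twins from 6.88 to 8.58 with a median of 7.25. The groups overlapped, with 12 of the 20 twins below all controls. The pair means differed by -0.59 ± 0.18 (SE; 1.51-fold, adjusted p = 0.0241). GM501 twins passed at -0.68 ± 0.19 (adjusted p = 0.0273) and SAGE twins did not at -0.50 ± 0.19 (adjusted p = 0.0713), but the media were not told apart for this gene, at -0.18 ± 0.15. After centring, SAGE twins passed too, at -0.75 (adjusted p = 0.0284). Within pairs 7 to 10 the difference was -0.46 ± 0.25 (adjusted p = 0.480).

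Aqp11, an unorthodox aquaporin that resides in the endoplasmic reticulum, lies on chromosome 7, from 97726379 to 97738247 and, unlike Aqp3, Aqp8 and Aqp9, had a higher mean in twins. Controls ran from 4.58 to 7.60 with a median of 6.59, GM501 twins from 6.12 to 9.12 with a median of 7.82, and SAGE twins from 5.46 to 8.32 with a median of 7.20. No twin lay below all controls and 10 of 20 lay above all of them, of which 6 were in pairs 1 to 6 and 4 in pairs 7 to 10. The difference of the pair means was 0.97 ± 0.36 (SE; adjusted p = 0.0538), which missed the threshold, and it stayed positive at 0.72 after centring (adjusted p = 0.153). Without pair 8 it was 1.04 and passed (adjusted p = 0.0437), as did GM501 twins alone, at 1.28 (adjusted p = 0.0336). It passed in pairs 1 to 6 at 1.18 ± 0.40 (adjusted p = 0.0177), where 64.2% of all genes were called. In pairs 7 to 10 it was 0.65 ± 0.50 (adjusted p = 0.665).

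The other 7 aquaporins listed all had a cluster of their own, and 3 passed the filter. Of these 3, 0 were called in any comparison of all pairs or of pairs 7 to 10. Over all genes, 25.6% and 0.73% were called there in the pair means. From pairs 1 to 6, 2 of 3 were called higher in each comparison with controls, where 42.1% of all genes were called higher in the pair means. Aqp7, a further aquaglyceroporin, was at 5.25 to 6.63 in controls, 5.2 to 7.29 in GM501 twins and 4.78 to 6.36 in SAGE twins. Its difference in the pair means was -0.15 ± 0.18 (SE; adjusted p = 0.532).

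**Figure D3:**
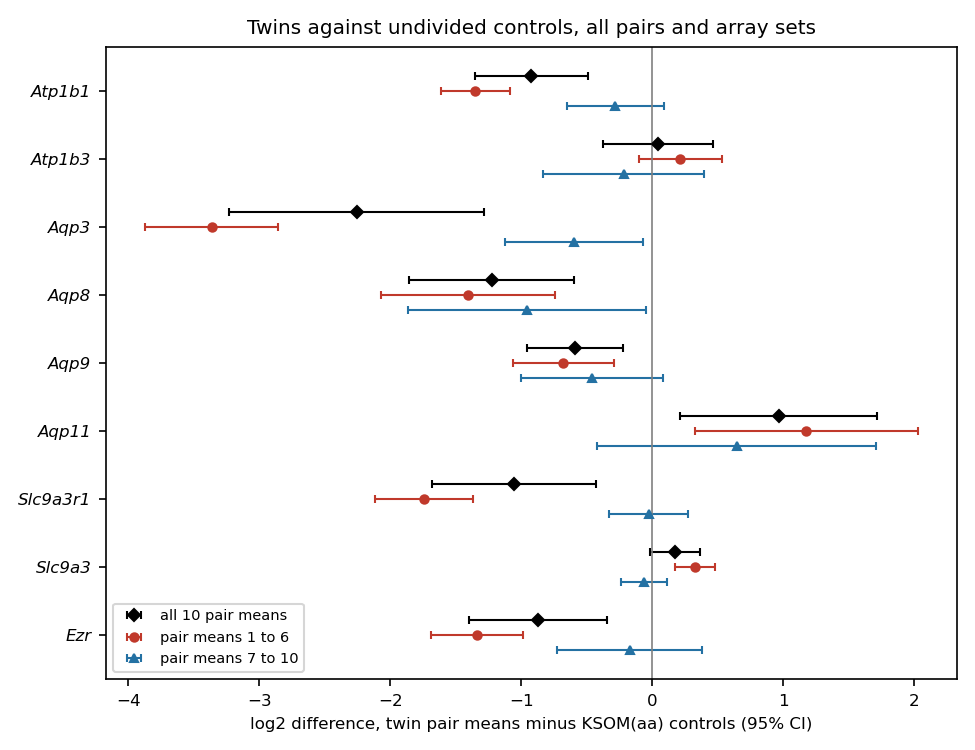
Log2 difference of the pair means from controls (horizontal axis, points with 95% confidence intervals) for each of the 9 genes (vertical axis), from all 10 pairs, from pairs 1 to 6 and from pairs 7 to 10. Aqp3 lies lowest from all pairs, at -2.26, and its values from pairs 1 to 6 and pairs 7 to 10 are -3.36 and -0.60.

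Among the exchanger and its scaffolds, both scaffold genes fell and the exchanger did not pass the test from all pairs. Slc9a3r1, whose product NHERF1 tethers membrane transporters through PDZ domains, lies on chromosome 11, from 115163341 to 115181178. Controls were tightly grouped, at 12.99 to 13.55 with a median of 13.20 and an SD of 0.18. GM501 twins ran from 11.02 to 13.68 with a median of 11.92 and an SD of 0.96, and SAGE twins from 10.29 to 13.52 with a median of 12.29 and an SD of 1.15. Within pairs 1 to 6 the SD was 0.40 in GM501 and 0.92 in SAGE twins, and within pairs 7 to 10 it was 0.30 and 0.52. All 12 twins of pairs 1 to 6 lay below every control, at 10.29 to 12.42, and the twins of pairs 7 to 10 lay at 12.38 to 13.68, among the controls but for 2 lower and 1 higher.

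The pair means of Slc9a3r1 differed from controls by -1.06 ± 0.30 (SE; 2.08-fold, adjusted p = 0.0207). Of the 2 media, GM501 twins differed by -0.99 ± 0.29 (adjusted p = 0.0328) and SAGE twins by -1.12 ± 0.35 (adjusted p = 0.0360). From pairs 1 to 6 the difference was -1.74 ± 0.18 (adjusted p = 6.33e-07). In pairs 7 to 10 it was -0.03 ± 0.14 (adjusted p = 0.970), and without pair 8 it turned to 0.12 ± 0.13.

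Ezr, whose product ezrin links the apical membrane to actin, lies on chromosome 17, from 6738131 to 6782780. Its signal ran from 8.36 to 9.59 in controls with a median of 9.16, from 7.20 to 10.03 in GM501 twins with a median of 7.81, and from 7.29 to 9.42 in SAGE twins with a median of 8.04. In pairs 1 to 6, 10 of 12 twins lay below every control, and in pairs 7 to 10, 2 of 8 did and 1 lay above. The difference of the pair means was -0.87 ± 0.25 (SE; 1.83-fold, adjusted p = 0.0215). SAGE twins passed alone, at -0.87 ± 0.25 (adjusted p = 0.0294), and GM501 twins, at -0.88 ± 0.31, did not (adjusted p = 0.0569). Without pair 8 the GM501 twins passed at -0.99 (adjusted p = 0.0258), and after centring at -1.12 (adjusted p = 0.0418). Within pairs 7 to 10 the difference was -0.17 ± 0.26 (adjusted p = 0.869).

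Slc9a3, on chromosome 13 from 74086255 to 74169442, stood nearest to the limit of the filter. Controls ran from 4.59 to 4.86 with a median of 4.69, GM501 twins from 4.42 to 5.08 with a median of 4.78, and SAGE twins from 4.37 to 5.46 with a median of 4.92. These signals lie near the array medians. The difference of the pair means, 0.17 ± 0.092 (SE; adjusted p = 0.148), turned to -0.07 both after centring and under quantile normalization. With weights for the quality of each array it was 0.26 and passed (adjusted p = 0.00526). In pairs 1 to 6, where array medians were also high, 10 of 12 twins lay above all controls and the difference passed, at 0.33 ± 0.073 (adjusted p = 0.000907). In pairs 7 to 10 it was -0.06 ± 0.083 (adjusted p = 0.839).

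The list of other ion transporters and scaffolds held 22 genes, of which 19 had a cluster of their own and 11 passed the filter. In the pair means 4 of 11 were lower and 0 higher, with a median of -0.36 over the 11, where 11.4% of all genes were called lower. From pairs 1 to 6 alone 5 were lower and 1 higher, where 22% of all genes were called lower and 42.1% higher. Msn, which encodes moesin, a relative of ezrin, fell by 1.19 on the log2 scale (SE 0.36; adjusted p = 0.0241). Slc4a2, an anion exchanger gene, fell by 0.48 (SE 0.16; adjusted p = 0.0361), and Slc12a2, which encodes the sodium-potassium-chloride cotransporter NKCC1, by 0.64 (SE 0.21; adjusted p = 0.0366). The fourth was Pdzd3, a PDZ scaffold gene, at -0.66 ± 0.23 (adjusted p = 0.0428). GM501 twins alone had 3 of 11 lower (Msn, Slc4a2 and Pdzd3), where 6.97% of all genes were called lower. SAGE twins had 1 of 11 lower (Msn), near the 8.63% of all genes called lower there. From pairs 7 to 10, 0 of 11 were called, where 0.73% of all genes were called in the pair means.

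Most listed markers of each of the 3 blastocyst lineages were also lower in the pair means. Of the 8 trophectoderm markers listed, 7 were lower in the pair means, where 11.4% of all genes were called lower: Cdx2, Eomes, Krt8, Krt18, Gata2, Tfap2c and Tead4. Their median was -0.70 over the 8. From pairs 1 to 6 alone 7 of 8 were lower (22% of all genes called lower), with a median of -0.92. From pairs 7 to 10 alone 0 of 8 were called lower (0.348% of all genes), with a median of -0.30. Epiblast and inner cell mass markers were lower in 4 of 6 genes in the pair means (11.4% of all genes), with a median of -0.57. From pairs 1 to 6, 5 of 6 were lower (22% of all genes). Against controls, 0 of these 6 were called in GM501 twins alone and 4 were lower in SAGE twins alone. There 6.97% and 8.63% of all genes were called lower, and between the media 0 of the 6 were called. Primitive endoderm markers were lower in 2 of 3 genes in the pair means (11.4% of all genes), with a median of -0.44. From pairs 1 to 6, 3 of 3 were lower (22% of all genes). From pairs 7 to 10, 0 genes of the epiblast and primitive endoderm lists were called, where 0.73% of all genes were called in the pair means. The part of cell-type makeup in the differences of the cavitation genes was not tested.

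The arrays with many low genes were also those with high medians. Each twin of pairs 1 to 6 had 4 to 7 of the 9 genes below all controls. In pairs 7 to 10 each had 0 to 3, except the SAGE twin of pair 8, with 6 of 9 and an array median of 5.12. The share of all genes below all controls was not counted for any array, so these counts do not set the 9 genes apart. Centring each array on its median moves the difference from controls down by the same amount in every gene, since twin medians were higher, so it does not bear on whether the array median had a part in the falls. That part was not tested, and all controls had array medians of at most 4.69.

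**Figure D4:**
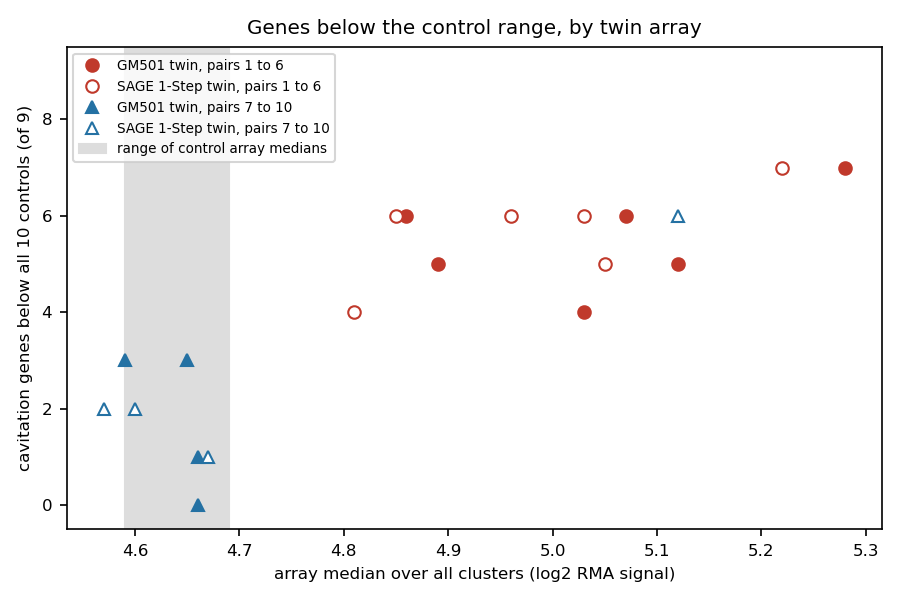
Number of the 9 genes below all 10 controls (vertical axis) against the array median in log2 units (horizontal axis), 1 point per twin, with the range of control medians shaded. Twins of pairs 1 to 6 have 4 to 7 low genes at medians from 4.81 to 5.28, and the SAGE twin of pair 8 lies with them at 5.12.

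Whether co-twins resembled each other more than twins of different embryos was asked with a test of embryo of origin. Of the 9 genes, 3 passed, where 26.4% of all genes were called. Aqp3 had an F of 10.4 (adjusted p = 0.00406), Slc9a3r1 an F of 9.07 (adjusted p = 0.00588) and Ezr an F of 4.41 (adjusted p = 0.0419). Their pair means spanned 10.05 in pair 4 to 14.06 in pair 9 for Aqp3, 10.80 in pair 1 to 13.60 in pair 10 for Slc9a3r1, and 7.34 in pair 6 to 9.72 in pair 10 for Ezr. These low and high pairs belong to the 2 array sets. Within pairs 1 to 6 and within pairs 7 to 10, 0 of 9 passed, where 0.243% and 0.0663% of all genes were called.

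For Aqp3 the SD of the pair means was 1.54, and the SD of single twins within pairs was 0.76. For Slc9a3r1 these values were 1.00 and 0.49. For Atp1b3 they were 0.57 and 0.97, and its F was 0.849 (adjusted p = 0.651). A mean of 2 twins varies less than a single twin, so the order of these SDs does not by itself measure resemblance. Atp1b1 did not pass (F = 3.43, adjusted p = 0.0753), but without pair 8, whose twins differed by 1.87 in this gene, it did (F = 6.48, adjusted p = 0.0165). There 35.1% of all genes were called, and the pairs left still belong to both array sets. Within pairs 1 to 6 the F of Atp1b1 was 0.73 (adjusted p = 0.818), and within pairs 7, 9 and 10 it was 2.76 (adjusted p = 0.589). Ezr lost its call when no filter on low signals was set (adjusted p = 0.0505).

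Some of the genes varied together from array to array, with co-twins entered as separate points. With each value taken as its deviation from the mean of its own group and array set, the highest Pearson's r over the 30 arrays were 0.67 between Atp1b1 and Atp1b3, 0.65 between Atp1b1 and Ezr, and 0.63 between Atp1b3 and Aqp3. The SAGE twin of pair 8, below all controls in these 4 genes, is among the points. It lay at 12.30 in Atp1b1 and 8.43 in Atp1b3, the lowest SAGE twin of pairs 7 to 10 in both. The r values without this array were not computed, so the values given may rest largely on it. Slc9a3 ran against the others, with r from -0.49 with Aqp3 to -0.08 with Aqp9. These are descriptions over arrays that share their amplification and normalization. Slc9a3 lies near the array medians, which were not taken out of the deviations, and their part in these r was not tested.

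**Figure D5:**
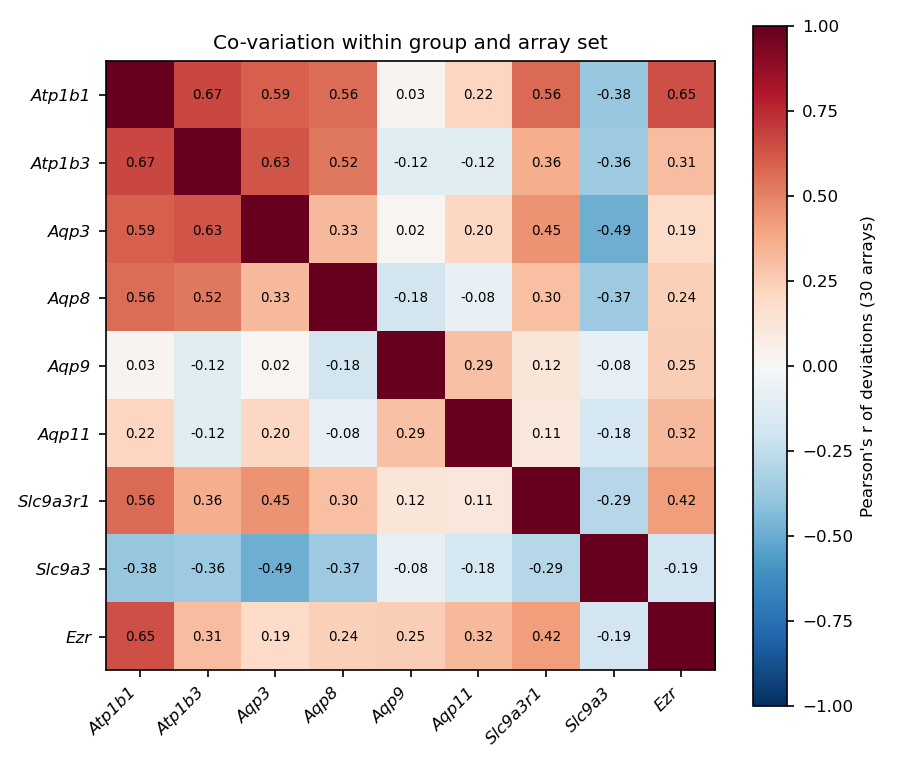
Pearson's r between each 2 of the 9 genes over the 30 arrays, of deviations from the mean of the own group and array set; the colour scale runs from -1 (blue) to 1 (red). The highest r is 0.67, between both beta subunit genes, and Slc9a3 is negative with all 8 others. The SAGE twin of pair 8, low in both beta subunit genes, is included, and r without it was not computed.

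Among all genes kept, those most like Atp1b1 by the same measure were Idh3a (r = 0.852), Prkab1 (0.840), Eef2 (0.816), Mlf2 (0.796) and Cstf1 (0.786). Most like Aqp3 were Osbpl11 and Stip1 (0.797 each), Blzf1 (0.788), Ap2a1 (0.784) and Nup205 (0.782). For Slc9a3 they were Crybb3 (0.838), Pheta2 (0.834), Gpt (0.831), Batf (0.829) and Sytl1 (0.828). The part of the array medians in these likenesses, with Slc9a3 near the limit of the filter, was not tested.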

How the data were processed

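The deposited table holds log2 signals for 65956 transcript clusters on each of 30 arrays, made by the authors with RMA in Affymetrix Expression Console on mm10, per the submitters' processing notes. Versions are not given in the sources used here. Such signals are relative within a cluster. That the logarithm has base 2 was inferred from values between 2.2 and 19.3. Clusters were named through the platform's gene table and the gene table of GRCm38.p6 (RefSeq): 30604 had 1 symbol and 2146 several, and the cluster with the highest mean stood for a gene. The upper 60% of genes by mean over all arrays were tested.

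Tests used limma 3.58.1 (R 4.3.3), with lmFit, eBayes and two-sided p-values adjusted by Benjamini-Hochberg over 18090 genes; a gene was called under 0.05. The script was tested on simulated data. SE are limma's moderated ones. The media were compared with the pair as a block, since co-twins come from 1 embryo per the labels. Pearson's r between partners, of deviations from the mean of each medium, ran from 0.163 to 0.696, over 0.1 in 10 of 10 pairs. For 7 of the 10 GM501 twins the best correlate among SAGE twins was the own partner. The deviations also hold the difference between the array sets, so these r values alone cannot check the pairing. Twins of each medium, and means of co-twins, were compared with the 10 controls. Embryo of origin was tested by limma's F test with medium in the model. The named genes were the 9 members, Fxyd2 and Aqp7 whatever their p, up to 3 called genes of each pathway list with the smallest p, and the 5 genes most like Atp1b1, Aqp3 and Slc9a3. Pdzd3 and the markers of cell lineages are named beside counts. Some genes under this rule are not reported here. The members, lists and array sets were chosen with earlier results of these data known. The number of arrays limits the precision.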

Additional observations from a re-analysis of the deposited data

Results flagged for a closer look

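In 33 groups of 10 blastocysts (11 genes in 3 groups: the 9 cavitation genes, Fxyd2 and Aqp7), 3 values lay far from the others of their group, with a gap to the nearest over the range above Dixon's critical value of 0.466. Chance alone sets apart about 1 group in 20. In Atp1b3, the GM501 twin of pair 1 was the lowest of its group, at 11.23. Also in Atp1b3, the SAGE 1-Step twin of pair 8 was the lowest of its group, at 8.43. In Aqp9, the SAGE 1-Step twin of pair 9 was the highest of its group, at 8.58.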

How the results depend on the processing

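Of 333 values of single genes under alternatives, 278 kept their direction where called and their side of the threshold, 28 lost a call, 22 gained one and 5 reversed; 31 not called in either setting changed sign. With pairs 7 to 10 only, and with pairs 7, 9 and 10 only, 0 of 9 genes were called in each of the 3 comparisons with controls, against 5, 5 and 6. Of all genes, 1.32%, 0.813% and 0.73% were called from pairs 7 to 10. From pairs 7, 9 and 10 the shares were 0.415%, 0.685% and 0.221%, so these counts do not set the 9 genes apart. With pairs 1 to 6 only, 8 were called for GM501 against controls, where 59.4% of all genes were called. For embryo of origin, 5 were called with array weights, where 37.1% of all genes were called, against 3 in the main fit, where 26.4% were called. With pairs 7 to 10, with pairs 1 to 6, or with pairs 7, 9 and 10 only, 0 were called by embryo of origin, where 0.0663%, 0.243% and 0.0553% of all genes were called. Fewer samples were fitted in these subsets.

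The reversed values were those of Slc9a3r1, at 0.048 (GM501 minus controls, pairs 7 to 10) and, from pairs 7, 9 and 10, at 0.098 (GM501), 0.15 (SAGE) and 0.12 (pair means), and of Ezr, at 0.045 (SAGE, pairs 7, 9 and 10); the cause was not tested. Without pair 8, an alternative chosen after seeing the data, 7, 4 and 7 genes were called against controls (GM501, SAGE, pair means). Of all genes, 25%, 16% and 28.8% were called there. Without the pair as a replicate block, 0 of 9 genes were called between the media, as with it, and 225 of all genes had an unadjusted p under 0.05.

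Over all genes, calls against controls (GM501, SAGE, pair means) numbered 2493, 2918 and 4628. They were 7911, 8876 and 10798 with array weights, 5757, 7911 and 12409 with no filter, 10742, 10642 and 11605 from pairs 1 to 6, 239, 147 and 132 from pairs 7 to 10, and 75, 124 and 40 from pairs 7, 9 and 10. Calls by embryo of origin numbered 4779, and 44, 12 and 10 in these 3 subsets. Without pair 8, GM501 calls numbered 4524. After centring, genes called higher and lower were 258 and 2285 (GM501), 260 and 3126 (SAGE) and 454 and 3802 (pair means), against 1232 and 1261, 1356 and 1562, and 2562 and 2066. Slc9a3 lay near the array medians, which limits what its signal can show.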
